A study of Mus musculus with 6 samples.

Results

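A set of 9 genes that mark monocytes or encode Fc receptors, Lyz2, Csf1r, Itgam, Ly6c2, Cd14, Fcgr1, Fcgr3, Fcgr4 and Cx3cr1, were followed across 6 RNA sequencing libraries whose labels give γδ T cells of mouse spleen. They were taken by gene symbol, and all 9 were among the 52459 listed symbols, Itgam under 2 gene identifiers. The DON group received DON, an agent that the labels do not spell out, on top of the cytokines IL-23 and IL-1β (n = 3 libraries), and the Control group received the cytokines without DON (n = 3). Cells of both groups came from C57BL/6 spleens and were stimulated for 3 days with plate-bound anti-CD3 and anti-CD28 antibodies. Age, sex, any sort of the cells and whether libraries came from separate mice or cultures are not given in the sources used here, so each p-value is set against library-to-library spread alone, and that spread may be technical. The question was how adding DON altered RNA levels.

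Monocytes are blood phagocytes that arise in the bone marrow under the growth factor CSF1 and are held in reserve in the spleen. Fc gamma receptors bind the constant part of IgG antibodies. In mice Fcgr1, Fcgr3 and Fcgr4 encode activating receptors, which need the common γ chain (Fcer1g) to signal through the kinase SYK, and Fcgr2b encodes the inhibitory receptor, which B cells also carry. None of the 9 genes belongs to monocytes alone: neutrophils, macrophages and NK cells share several of them, and activated T cells can express Ly6c2.

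All 9 genes passed the minimum of 10 normalized counts in at least 3 libraries. DON libraries showed a moderately lower Lyz2 and a higher Cd14, and the other 7 genes did not pass the test. A gene was called where limma's adjusted p over all 17185 tested genes was under 0.05. At that threshold 1 member rose and 1 fell, against 2.3% of tested genes called higher, 4.15% called lower and 6.45% called in either direction. The median log2 change, DON over Control, was -0.12 over the 9 genes and 0.00 over all tested genes. For 5 of the 9 genes, Lyz2, Itgam, Cd14, Fcgr3 and Cx3cr1, the 3 DON libraries did not overlap the 3 Control libraries, which was also the case for 31.4% of tested genes.

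Facts about the libraries bear on each result. Recovered totals ranged from 35717703 to 40840099 units in DON libraries and from 33715873 to 37888926 in Control libraries. DON libraries 2 and 3 stood apart in base composition: between transcripts of low and high GC content (41.01% and 57.49%, the 10th and 90th percentiles) their log2 deviation from the gene mean rose by 0.33 and 0.34, against a shift of -0.16 in DON library 1 and of -0.25 to -0.11 in Control libraries. Trdc, the δ chain constant region gene, averaged 4451 ± 151 normalized counts in DON and 4568 ± 136 in Control (SD, n = 3 each). It was chosen after its values were seen. Both groups also held markers of other blood cells, and no neutrophil, macrophage, dendritic cell, NK cell or B cell marker was at 0 in all libraries.

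**Figure D1:**
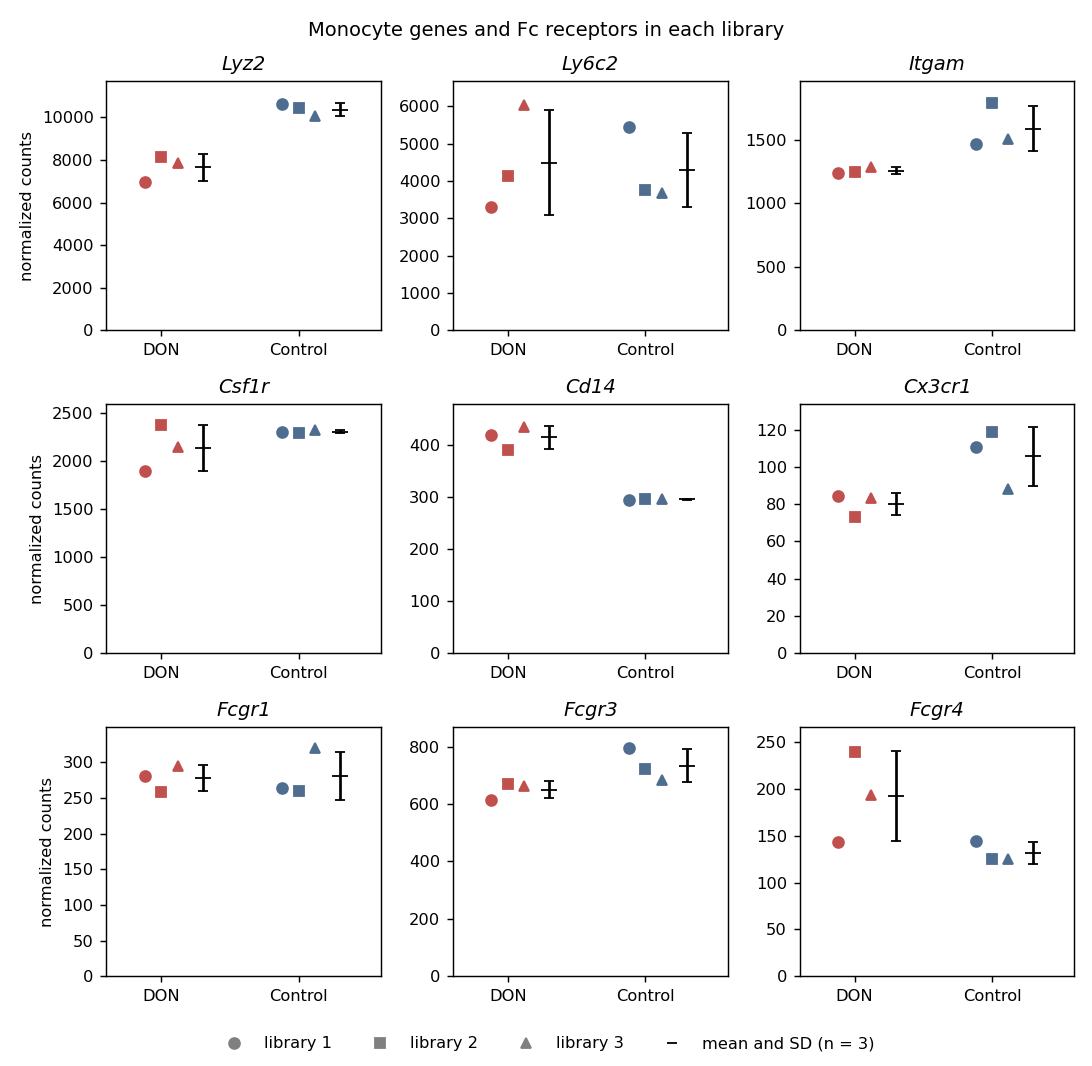
Normalized counts of each of the 9 genes in every library, with DON left of Control in each panel; symbols stand for library numbers within a group and bars for the mean and SD of 3 libraries. Lyz2 lay lower in all DON libraries and Cd14 higher, while Ly6c2 spread over 3306 to 6038 in DON and 3687 to 5453 in Control.

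Lyz2 encodes lysozyme M, an enzyme that cuts bacterial cell walls and is abundant in monocytes, macrophages and neutrophils (ENSMUSG00000069516.8, chromosome 10, 117277331 to 117282321). It lies beside Lyz1, a near copy that mice express mainly in Paneth cells of the intestine. The 120 bases before the RefSeq start of both genes are shown for comparison of the pair (GRCm38.p6, minus strand, chr10:117282273-117282392 for Lyz2 and chr10:117292869-117292988 for Lyz1). The listed span of Lyz2 reaches 117282321, inside its window, so part of that window lies within the listed gene. Read without gaps, 111 bases were the same, and capitals mark the 9 that differ.
Lyz2: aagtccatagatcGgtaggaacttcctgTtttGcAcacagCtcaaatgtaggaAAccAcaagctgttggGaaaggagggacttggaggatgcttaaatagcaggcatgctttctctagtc
Lyz1: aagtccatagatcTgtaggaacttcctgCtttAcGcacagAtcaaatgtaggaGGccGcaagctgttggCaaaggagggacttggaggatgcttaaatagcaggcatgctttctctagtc

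Lyz2 stood at 6942, 8159 and 7841 normalized counts in DON libraries 1 to 3, against 10607, 10439 and 10047 in Control libraries. Every DON library was below every Control library, and the mean was 7647 ± 631 in DON and 10364 ± 287 in Control (SD, n = 3 each). The log2 change was -0.44 (SE 0.07, 95% interval -0.61 to -0.27, limma adjusted p = 0.0171). Lyz1 had 22.9, 66.9 and 28.4 normalized counts in DON and 26.4, 7.68 and 39.99 in Control, a log2 change of 0.76 that did not pass (limma adjusted p = 0.513). The longest transcripts of the pair were 95.8% identical over 1264 aligned bases, so reads may have been split between them, but their summed log2 change was -0.44 as well.

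The direction of Lyz2 was the same under 19 alternatives, with log2 changes between -0.58 and -0.37, and it was called in 13 of them. Leaving out any 1 Control library, or DON library 3, ended the call (adjusted p = 0.0755, 0.0787 and 0.0656 without Control libraries 1 to 3, and 0.053 without DON library 3), as did a fit with no variance trend (0.0881). With DON libraries 2 and 3 both left out, the log2 change was -0.58 (limma adjusted p = 0.0137). That fit has 1 DON library, which is assumed to vary like the Control libraries, so its p-values and counts of calls, here and for the genes that follow, take no spread from DON. In bulk RNA, fewer cells of a type and less RNA per cell cannot be told apart.

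Markers of cells that also use lysozyme M moved in the same libraries. Of 12 tested markers of neutrophils and their precursors, 10 were called lower and 0 higher, with a median log2 change of -2.60. Retnlg and Csf3r, which were not called, lay above 0 (log2 0.31 and 0.19, limma adjusted p = 0.553 and 0.386). Over all 13 listed neutrophil markers, tested or not, the summed level was 2900 to 3408 normalized counts in DON libraries and 12511 to 13125 in Control libraries. Ngp, a neutrophil granule protein gene, averaged 600.1 ± 34 in DON and 3233 ± 153 in Control (SD, n = 3 each; log2 -2.43, limma adjusted p = 1.55e-05). S100a8, a calcium binding protein of neutrophils and monocytes, averaged 158 ± 24.2 in DON and 1131 ± 43.1 in Control (log2 -2.84, limma adjusted p = 0.000114). Of 16 macrophage markers 5 were called higher and 0 lower, with summed levels of 26902 to 28717 in DON and 22406 to 23013 in Control. The part of these cells in the change of Lyz2 was not tested.

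Ly6c2 encodes a surface protein that is high on classical monocytes (ENSMUSG00000022584.14, chromosome 15, 75108158 to 75111970). Its levels were 3306, 4147 and 6038 normalized counts in DON and 5453, 3757 and 3687 in Control. The highest library of each group was far above the other 2. The groups overlapped, and DON differed from Control by 0.04 on the log2 scale (95% interval -0.49 to 0.58, limma adjusted p = 0.928). The near copy Ly6c1, known from T cells and endothelium, ranged from 3594 to 4472 in DON and from 3757 to 4127 in Control (95% interval of the log2 change -0.22 to 0.21). The longest transcripts of the 2 genes were 97.6% identical over 822 aligned bases, so either value is uncertain. Summed, they gave 6900, 8619 and 9938 in DON and 9580, 7801 and 7444 in Control, which also overlap. The ratio of Ly6c2 to Ly6c1 was 0.92, 0.927 and 1.55 in DON and 1.32, 0.929 and 0.981 in Control (exact two-sided permutation p = 1, n = 3 each). Only DON library 3 and Control library 1 held more Ly6c2 than Ly6c1.

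Of 16 listed genes of classical and non-classical monocytes, 7 were called lower, 0 higher and 9 were not called, with a median log2 change of -0.33. Ccr2, the chemokine receptor that brings monocytes out of the marrow, had 887, 856 and 740 normalized counts in DON and 2105, 2556 and 2721 in Control (log2 -1.57, SE 0.12, limma adjusted p = 0.000806). It is also a receptor of interleukin 17 producing γδ T cells. Chil3, a chitinase-like secreted protein of monocytes and macrophages, averaged 465 ± 50.4 in DON and 973 ± 35.4 in Control (log2 -1.07, limma adjusted p = 0.00277). The matrix protein genes Vcan and Fn1 fell too, by 1.07 and by 1.40 on the log2 scale (limma adjusted p = 0.00683 and 0.0281). Eno3 and Adgre4, known from non-classical monocytes, were among the 7 as well (log2 -0.57 and -0.84, limma adjusted p = 0.038 and 0.0414). The count depended on the libraries: it was 3 without any 1 Control library or DON library 3, 4 without DON library 2 and 9 without DON library 1. Without DON libraries 2 and 3 it was 4, and Fn1 was not called (log2 -0.95, limma adjusted p = 0.188).

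Csf1r encodes the receptor for CSF1, on which monocytes and macrophages depend (ENSMUSG00000024621.15, chromosome 18, 61105572 to 61132149). It stood at 1894, 2374 and 2146 normalized counts in DON and at 2300.2, 2293 and 2324 in Control. DON libraries 1 and 3 lay below the narrow Control range and DON library 2 above it. The difference was -0.12 on the log2 scale, with a 95% interval of -0.33 to 0.10 (limma adjusted p = 0.481). The ligand gene Csf1 averaged 305 ± 34.1 in DON and 339 ± 29.9 in Control (SD, n = 3 each; log2 -0.16, limma adjusted p = 0.525). Il34, which encodes the other ligand of the receptor, was at 0 in all 6 libraries.

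Cx3cr1 encodes the fractalkine receptor, which is high on non-classical monocytes and also found on NK cells (ENSMUSG00000052336.7, chromosome 9, 119901616 to 120069879). It had 84.2, 73.1 and 83.1 normalized counts in DON and 110.5, 118.5 and 88.2 in Control. The groups did not overlap, but Control library 3 was within 5 counts of the nearest DON library. The log2 change of -0.39 had a 95% interval of -0.87 to 0.10 and did not pass (limma adjusted p = 0.29). Its listed span also holds genes that share no exon bases with it, among them Wdr48 and Gorasp1. Cx3cl1, the gene of its ligand, had 162, 219 and 149 normalized counts in DON and 164, 167 and 220 in Control (log2 -0.06, limma adjusted p = 0.879). Among 8 tested NK cell markers limma called 0 and edgeR 0, DESeq2 called 1 higher and 1 lower, and 3 had an unadjusted limma p under 0.05. Their summed level was 3014 to 3509 in DON and 3054 to 3341 in Control. Prf1 and Eomes were the largest parts of that sum, with means of 1092 and 958 in DON and 858 and 951 in Control.

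Itgam encodes the α chain of the integrin Mac-1, by which myeloid and NK cells bind complement and the endothelium (ENSMUSG00000030786.18, chromosome 7, 128062640 to 128118491). With both of its identifiers summed, it stood at 1235, 1247 and 1288 normalized counts in DON and at 1463, 1788 and 1504 in Control. All DON libraries were lower, by 0.33 on the log2 scale (95% interval -0.56 to -0.10), but the change did not pass over all genes (limma adjusted p = 0.0871). DESeq2 called it (adjusted p = 0.0396), and the other 18 alternatives did not. Itgb2, the β chain that Itgam shares with the other leukocyte integrins, stood at 9134, 10446 and 10126 in DON and at 10367, 9732 and 8933 in Control. The groups overlapped (log2 0.03, 95% interval -0.15 to 0.22).

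Cd14 encodes a surface protein that hands bacterial lipopolysaccharide to the receptor TLR4 and its partner MD-2, the product of Ly96 (ENSMUSG00000051439.6, chromosome 18, 36725074 to 36726736). Cd14 had 418, 391 and 434 normalized counts in DON and 294, 296 and 295 in Control. The groups did not overlap, and the log2 change was 0.49 (SE 0.11, 95% interval 0.22 to 0.75, limma adjusted p = 0.0472). The call was near the threshold. It held in 7 of 18 alternatives, among them TMM scaling and DESeq2, and ended in edgeR (adjusted p = 0.0511), with no filter on low values (0.0649), without any 1 library other than DON library 1 (0.106 to 0.149) and without DON libraries 2 and 3 (0.229). Its log2 change kept to 0.45 to 0.57 throughout.

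Of the genes that work with Cd14, Ly96 was called, and lower. It had 40.2, 18.7 and 30.4 normalized counts in DON and 108.5, 135 and 100.5 in Control, and fell by 1.96 on the log2 scale (SE 0.33, limma adjusted p = 0.0179). Tlr4 had 277, 136 and 153 in DON and 319, 381 and 432 in Control, without overlap, and its log2 change of -1.06 did not pass (limma adjusted p = 0.0608). DON library 1 lay nearer to the lowest Control library than to DON libraries 2 and 3, and without those 2 libraries the log2 change was -0.43. After the GC correction it was -0.67, and without DON library 1 it was -1.37 and passed (limma adjusted p = 0.00235). DESeq2 called it too (adjusted p = 0.00812). Ticam2, an adaptor of TLR4, lay on the side of Cd14, with 276, 281 and 286 normalized counts in DON and 209, 246 and 184 in Control, without passing (log2 0.41, limma adjusted p = 0.143). Myd88, the other main adaptor, averaged 2254 ± 207 in DON and 2310 ± 126 in Control (SD, n = 3 each; log2 -0.04). Of the 12 tested ligands, partners and near copies of the members, Ly96 was the only gene called, and 11 were not. Its call ended without any 1 Control library (limma adjusted p = 0.0707, 0.0843 and 0.0657 without Control libraries 1 to 3), without DON library 3 (0.0524) and without DON libraries 2 and 3 (log2 -1.48, 0.0904).

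**Figure D2:**
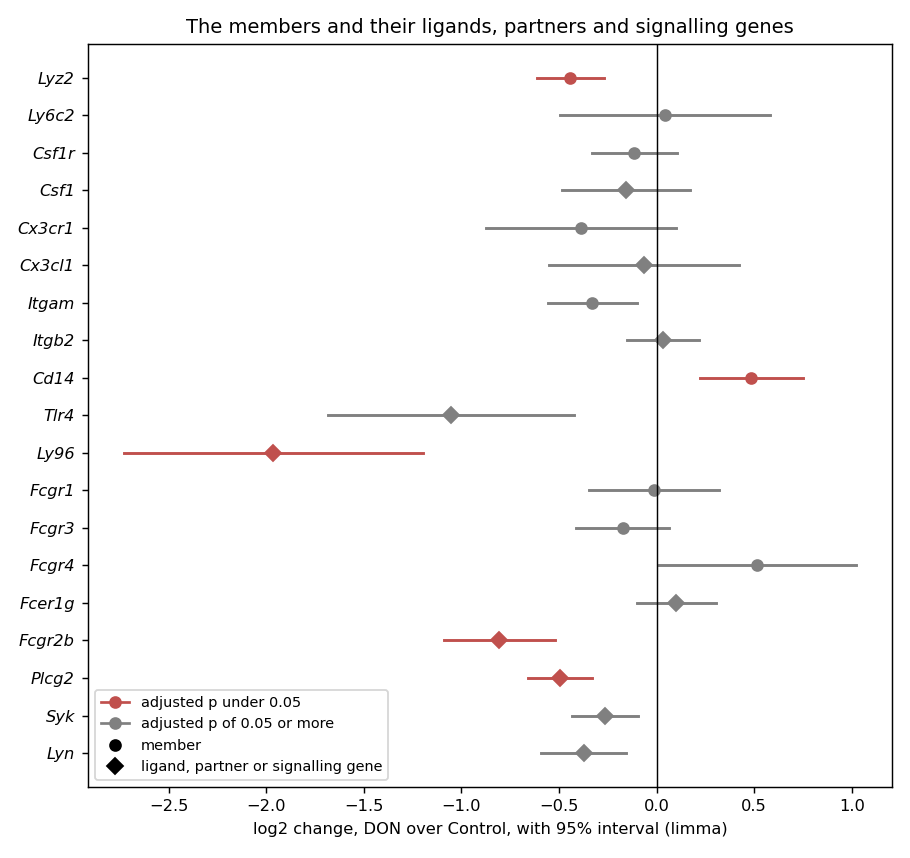
Log2 change of the 9 genes (circles) and of their ligands, partners and signalling genes (diamonds), DON over Control, with limma 95% intervals; red marks an adjusted p under 0.05. Lyz2 (-0.44), Ly96 (-1.96), Fcgr2b (-0.80) and Plcg2 (-0.49) lay to the left of 0 and Cd14 (0.49) to the right.

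None of the 3 activating Fc gamma receptor genes was called, whereas the inhibitory Fcgr2b fell. The 120 bases before the RefSeq start of these genes are shown for comparison of the family (GRCm38.p6). Capitals mark GAGGAA, a form of the site bound by the myeloid and B cell transcription factor PU.1, or its reverse complement TTCCTC. Shorter or other forms of the site were not counted. The windows are chr3:96293970-96294089 (minus strand) for Fcgr1, chr1:171059404-171059523 (minus) for Fcgr3, chr1:171018806-171018925 (plus) for Fcgr4 and chr1:170976072-170976191 (minus) for Fcgr2b.
Fcgr1: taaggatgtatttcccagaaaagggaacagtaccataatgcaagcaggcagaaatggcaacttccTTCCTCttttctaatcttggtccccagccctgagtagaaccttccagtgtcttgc
Fcgr3: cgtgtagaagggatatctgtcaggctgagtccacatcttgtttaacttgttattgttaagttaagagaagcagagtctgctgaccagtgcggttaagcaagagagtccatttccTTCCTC
Fcgr4: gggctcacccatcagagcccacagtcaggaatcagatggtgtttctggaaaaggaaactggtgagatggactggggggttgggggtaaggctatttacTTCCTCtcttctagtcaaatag
Fcgr2b: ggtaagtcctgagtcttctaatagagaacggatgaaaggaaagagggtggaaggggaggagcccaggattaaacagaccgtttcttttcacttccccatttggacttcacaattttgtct

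Each activating gene had 1 match, on the opposite strand. The matches began at position -55 in Fcgr1, -6 in Fcgr3 and -22 in Fcgr4, counted back from the RefSeq start. For Fcgr3 and Fcgr4 that start lies inside the listed span of the gene. The Fcgr2b window had 0. Both strands were searched, and 5 of the 7 members with a window held a match, Itgam and Ly6c2 besides the Fc receptor genes, against 11.6% of 32851 promoter windows of the same length. A match is a description of the letters, not evidence of binding. Spi1, which encodes PU.1, averaged 979 ± 62.4 normalized counts in DON and 1017 ± 80.2 in Control (SD, n = 3 each; log2 -0.05, 95% interval -0.29 to 0.18).

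Fcgr1 encodes the high affinity receptor of monocytes and macrophages (ENSMUSG00000015947.10, chromosome 3, 96282909 to 96293969). It had 280, 258 and 295 normalized counts in DON and 264, 259 and 320 in Control, an almost complete overlap. Between the groups it moved by -0.01 on the log2 scale, with a 95% interval of -0.34 to 0.32 (limma adjusted p = 0.968). It came out slightly above 0 with equal library totals (0.002) and quantile normalization (0.10), so the data give it no direction.

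Fcgr3 encodes a low affinity receptor of NK cells, neutrophils and macrophages (ENSMUSG00000059498.13, chromosome 1, 171051174 to 171064935). It had 616, 669 and 665 normalized counts in DON and 796, 722 and 683 in Control. The highest DON library fell short of the lowest Control library by a small margin. The log2 change of -0.17 did not pass (95% interval -0.41 to 0.07, limma adjusted p = 0.333). The longest transcripts of Fcgr3 and Fcgr2b were 96.5% identical over 509 bases, so the counting could have split reads between them.

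Fcgr4 encodes a receptor of intermediate affinity on monocytes, macrophages and neutrophils, and lies close to Fcgr3 (ENSMUSG00000059089.4, chromosome 1, 171018920 to 171029761). It had 143, 240 and 194 normalized counts in DON and 145, 125.1 and 125.1 in Control. DON libraries 2 and 3 lay above all Control libraries, and DON library 1 lay among them. Its log2 change of 0.52 was close to that of Cd14, with a wider interval (0.01 to 1.02, limma adjusted p = 0.188). Without DON library 1 it was called (log2 0.71, limma adjusted p = 0.0435), and without DON libraries 2 and 3 the log2 change was 0.13.

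Ratios within the family set the receptors against each other. Fcgr2b had 538, 672 and 669 normalized counts in DON and 1028, 1193 and 1053 in Control, a log2 change of -0.80 (SE 0.12, limma adjusted p = 0.0121). Its call ended without Control library 2 or 3 (limma adjusted p = 0.0607 and 0.0542). The sum of the 3 activating genes was 1.93, 1.74 and 1.72 times Fcgr2b in DON and 1.17, 0.927 and 1.07 times Fcgr2b in Control. All DON ratios were above all Control ratios, and the log2 difference was 0.77 (exact two-sided permutation p = 0.1, n = 3 each, the smallest value 3 against 3 libraries can give). Fcgr2b is the denominator, so this difference is not separate from its fall. The activating genes moved by -0.01 (Fcgr1), -0.17 (Fcgr3) and 0.52 (Fcgr4) on the log2 scale, and none was called. Reads split between Fcgr3 and Fcgr2b could also alter the ratio. The ratio of Fcgr4 to Fcgr3 was 0.233, 0.359 and 0.291 in DON and 0.182, 0.173 and 0.183 in Control, a log2 difference of 0.69 with the same exact permutation p of 0.1. Without DON libraries 2 and 3 the 2 differences were 0.88 and 0.38, the second of them smaller by over 1.5 times.

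B cell markers fell with Fcgr2b. All 10 tested were called lower, with a median log2 change of -0.91 and summed levels of 11518 to 12374 normalized counts in DON and 19933 to 20892 in Control. Ms4a1, which encodes CD20, averaged 1245 ± 162 in DON and 3534 ± 224 in Control, and Pax5, the B lineage factor, 1152 ± 77.1 in DON and 2493 ± 169 in Control (SD, n = 3 each). The count of B cell markers called was 4 without any 1 Control library, 7 without DON library 3 and 8 without DON libraries 2 and 3. Their part in the fall of Fcgr2b was not tested.

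**Figure D3:**
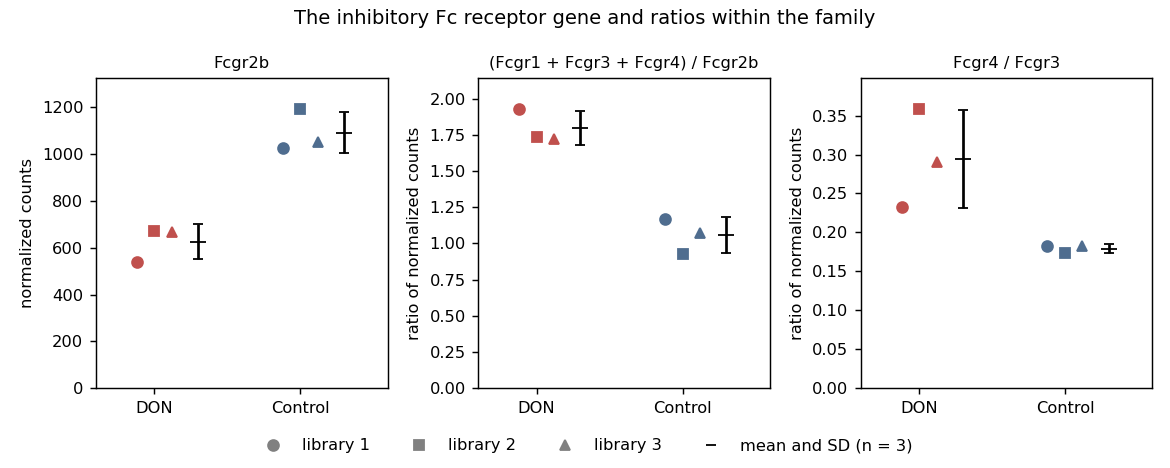
Normalized counts of Fcgr2b (left) and 2 ratios of normalized counts within the Fc gamma receptor family (middle and right) in each library, DON left of Control, with mean and SD of 3 libraries. The activating sum was 1.72 to 1.93 times Fcgr2b in DON and 0.927 to 1.17 times in Control.

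On the list of 14 Fc receptor signalling genes, which holds Fcgr2b itself and Fcer1g, 2 were called lower, 0 higher and 12 were not called. Besides Fcgr2b this was Plcg2, a phospholipase that B cells and myeloid cells use, with 1646, 1640 and 1741 normalized counts in DON and 2360, 2324 and 2398 in Control (log2 -0.49, limma adjusted p = 0.00932). Syk averaged 3789 ± 247 in DON and 4542 ± 164 in Control, and Lyn, a kinase upstream of it, 1588 ± 92.2 in DON and 2062 ± 191 in Control (SD, n = 3 each). Both were lower in all DON libraries without passing (log2 -0.26 and -0.37, limma adjusted p = 0.074 and 0.0569). Fcer1g, the chain that carries the activating receptors, had 1697, 2026 and 1813 normalized counts in DON and 1695, 1738 and 1716 in Control (log2 0.10, limma adjusted p = 0.509). Without DON libraries 2 and 3, 1 of the 14 was called lower, Fcgr2b, and Plcg2 was not (limma adjusted p = 0.0531). The count was 1 without Control library 2 and 4 without DON library 1, and without Control library 3 neither Fcgr2b nor Plcg2 passed (limma adjusted p = 0.0542 and 0.0569).

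Among 12 transcription factors of myeloid cells, 3 were called lower and 0 higher. Irf8, which monocytes, dendritic cells and B cells need, averaged 2540 ± 183 normalized counts in DON and 3928 ± 135 in Control (log2 -0.63, limma adjusted p = 0.0051). Nr4a1, on which non-classical monocytes depend and which T cell receptor signalling also induces, fell by 0.67 on the log2 scale, and Cebpb by 0.50 (limma adjusted p = 0.0162 and 0.0435). The call of Cebpb held in 8 of 19 alternatives and ended without any 1 Control library (adjusted p = 0.115 to 0.144 in limma) or without DON library 2 or 3 (0.0798 and 0.084). Without Control library 2 or 3, 1 of the 12 factors was called. Klf4, a factor of monocyte maturation, had 265, 273 and 246 in DON and 215, 160.2 and 161 in Control, and its log2 change of 0.56 did not pass (limma adjusted p = 0.0882).

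**Figure D4:**
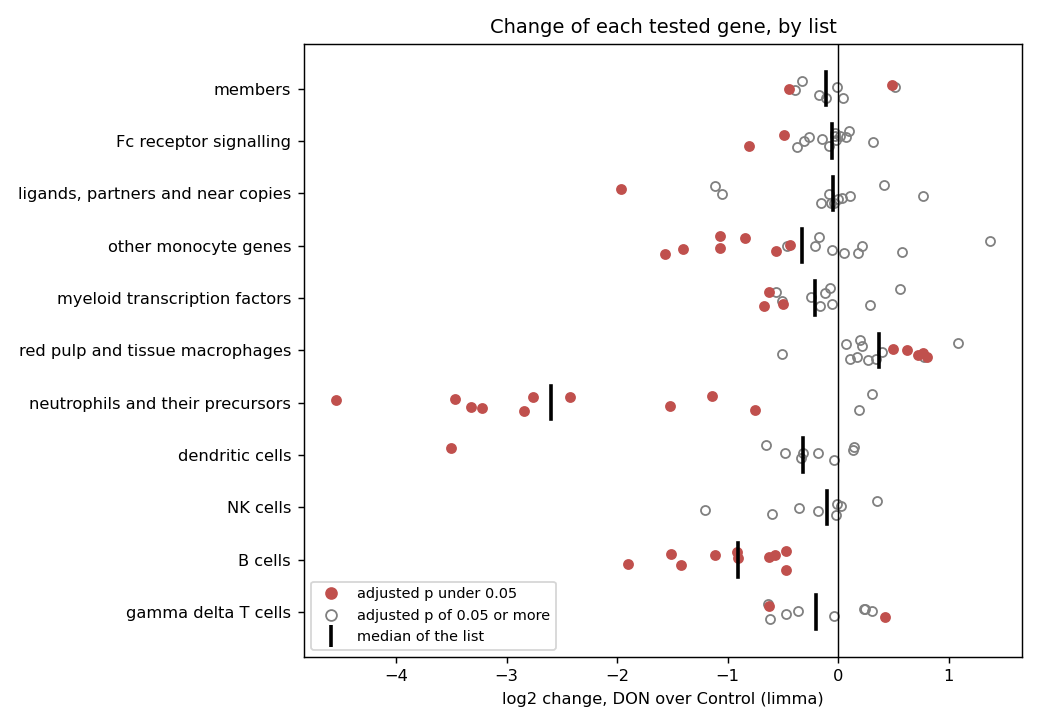
Log2 change of each tested gene, DON over Control, by list; filled red points had an adjusted p under 0.05, open points did not, and black bars are list medians. The 9 members straddled 0 (median -0.12), between the neutrophil list (-2.60) and the macrophage list (0.37).

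Of the macrophage markers, Adgre1 and Cd68 had the smallest adjusted p, and both rose. Adgre1, a surface receptor of macrophages, had 2442, 2421 and 2796 normalized counts in DON and 1576, 1496 and 1553 in Control (log2 0.72, limma adjusted p = 0.00437). Cd68, a lysosomal protein of phagocytes, averaged 1945 ± 200 in DON and 1110 ± 55.6 in Control (SD, n = 3 each; log2 0.80, limma adjusted p = 0.00532). Csf1r and Fcgr1, which macrophages share with monocytes, were not called (log2 -0.12 and -0.01). The count of macrophage markers called higher was 3 without any 1 Control library or DON library 3, and 8 without DON library 1. With DON library 1 alone it was 2, and Cd68 was not among them (log2 0.64, limma adjusted p = 0.0585). Dendritic cell markers were called in 1 of 9 cases, Siglech of plasmacytoid dendritic cells, at 13.4, 20.5 and 9.12 normalized counts in DON and 112, 230 and 172 in Control. Their summed level was 5234 to 5552 in DON and 5485 to 5969 in Control. Ccr9 was the largest part of that sum, at 3318 ± 242 in DON and 3399 ± 161 in Control (SD, n = 3 each). Of 10 genes on the γδ T cell list, Cd3d rose (log2 0.42) and Blk, also on the B cell list, fell (log2 -0.62; limma adjusted p = 0.0472 and 0.0219). Neither call was firm: Cd3d held in 6 of 19 alternatives and Blk in 12 of 19, both were lost without any 1 Control library, and without DON libraries 2 and 3 the adjusted p was 0.275 for Cd3d (log2 0.20) and 0.0629 for Blk. The list had a median log2 change of -0.20, although its sum was higher, at 59127 to 67069 in DON and 54577 to 55690 in Control. The genes of the CD3 complex on it, which all T cells share, had log2 changes of 0.23 (Cd3e), 0.24 (Cd247), 0.30 (Cd3g) and 0.42 (Cd3d). The γ chain constant genes were at -0.37 (Tcrg-C1), -0.47 (Tcrg-C2) and -0.62 (Tcrg-C4), and Sox13, a factor of γδ T cells, at -0.64. Apart from Cd3d, none of these 8 genes passed in limma (adjusted p = 0.0597 to 0.214).

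Set per kilobase of annotated exon, Lyz2 was the most abundant of the 7 members with an exon length used here. It stood at 5811 ± 480 normalized counts per kilobase in DON and 7875 ± 218 in Control (SD, n = 3 each). Ly6c2 followed at 1641 ± 511 in DON and 1569 ± 365 in Control, then Fcgr3 at 374 ± 17 in DON and 423 ± 33 in Control, and Itgam at 250.1 ± 5.52 in DON and 316 ± 35.1 in Control. The Ly6c2 value used 2740 bases of exon, but its longest protein-coding transcript had 822, so its distance from Lyz2 depends on the length chosen. Fcgr4 and Fcgr1 came next, and their order differed between the groups. Fcgr4 was at 153 ± 38.4 per kilobase in DON and 105 ± 9 in Control, and Fcgr1 at 107 ± 7.21 in DON and 109 ± 13.1 in Control, so in Control the pair did not differ beyond their spread. Cx3cr1 was lowest, at 17.8 ± 1.35 per kilobase in DON and 23.5 ± 3.49 in Control. The common chain gene Fcer1g stood at 2112 ± 191 in DON and 1964 ± 24.7 in Control on this scale, above each of the receptor genes it serves.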

How the data were processed

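Per the submitters' processing notes, the tools named are HISAT2 and StringTie and the builds mm10 and mm8, without role, order or version. Strand and the counting method are not given in the sources used here. Per the file headers, the deposited values are normalized counts per gene, a signal in which the authors divided counts by 1 factor per library. In each library 100% of values were whole multiples of 1 step (tolerance 0.001), so undivided units were recovered. A unit need not be 1 read, since more genes held 4 units (854 to 903 per library) than 3 or 5.

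Where several identifiers carried 1 symbol, their values were added. Genes with at least 10 normalized counts in at least 3 libraries (17185) were fitted with limma 3.58.1 in R 4.3.3 (eBayes with a trend, two-sided) on log2(value + 1), which understates changes of low genes, with Benjamini-Hochberg adjustment over all of them. The design named this test for normalized counts. Ratios used exact permutation tests (SciPy 1.17.1). Alternatives, including edgeR 4.0.16 and DESeq2 1.42.0 on recovered units, are given at the end. The fit was also run on simulated data with 1 fixed dispersion. Changes there were planted only in genes with high counts and were larger than those of Lyz2 and Cd14. That simulation therefore does not cover small changes or low genes.

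Positions are as the files list them, and 49035 of 52550 genes had the same place in GENCODE release M21 (GRCm38, mm10), the source of exon lengths and GC content (87.8% of tested genes). Transcripts were compared with BLAST 2.17.0, and promoter sequences are from RefSeq (GRCm38.p6). The members and lists were chosen with earlier results of these data known. Named genes were the 9 members, 11 partners and near copies, and from each list the genes with the smallest adjusted p (up to 4, or 2 for cell types), with other genes named as chosen after their values were seen. Exon lengths of Csf1r and Cd14 were not used here.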

Additional observations from a re-analysis of the deposited data

How the results depend on the processing

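Relative to 395 genes called higher and 713 called lower in DON, the counts were 220 higher with no filter, 72 and 291 with no variance trend, 790 and 1348 in DESeq2, 61 and 297 without DON libraries 2 and 3, and 48 and 240 with the replicate block. Leaving out 1 library gave 65 to 1119 higher and 193 to 2118 lower, with both maxima without DON library 1. No member was called higher (0) with no filter, a minimum of 1 normalized count, no variance trend, edgeR (2 members higher at an unadjusted p under 0.05), the GC correction (which had no value for Csf1r and Cd14), the replicate block or without DON libraries 2 and 3. Without 1 library 0 to 2 members were higher and 0 to 1 lower. No member was called lower (0) with no variance trend or the replicate block, and 2 were in DESeq2. At a mean of at least 5 CPM, Fcgr4 and Cx3cr1 were not tested.

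Changes near 0 turned sign. Ly6c2 was -0.35 without DON libraries 2 and 3 and -0.19 to 0.24 without 1 library, and its ratio to Ly6c1 -0.21 and -0.20 to 0.20. Fcgr1 was 0.104 with quantile normalization, 0.002 with equal totals, 0.003 without DON libraries 2 and 3, and -0.068 to 0.084 without 1 library. Itgb2 was -0.04 after the GC correction, -0.081 without DON libraries 2 and 3, and -0.023 to 0.09 without 1 library. Fcer1g was -0.017 without DON libraries 2 and 3. Cx3cl1 was 0.086 with quantile normalization and -0.23 to 0.073 without 1 library. Ly6c1 was 0.005 with TMM scaling, 0.013 with quantile normalization, 0.014 with equal totals, 0.0 in edgeR, 0.002 in DESeq2, and -0.086 to 0.072 without 1 library. The cause was not tested.

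Same-numbered libraries did not deviate together (r of their deviations over genes -0.06, -0.05 and -0.05). Such values cannot decide whether the numbers pair the libraries, since each group holds 3 and DON libraries 2 and 3 share a GC shift. The block ended the calls of Lyz2 (adjusted p = 0.0677) and Cd14 (0.131), and with it 3 of 16 other monocyte genes and 6 of 10 B cell markers were called lower. The 2 Fc receptor ratios kept their sign in each alternative tried.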

Other observations

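Reads at the Itgam locus were divided unevenly between its 2 identifiers. The second, ENSMUSG00000108596.1, which GENCODE calls Gm49368 and which shares 3450 exon bases with the first, had 1.91, 0 and 292 normalized counts in DON libraries 1 to 3 and 6.84, 0 and 0 in Control libraries. The first alone had 1233, 1247 and 996 in DON and 1457, 1788 and 1504 in Control, a log2 change of -0.45, against -0.33 for the sum (exact two-sided permutation p = 0.1 for each, n = 3 each, the smallest possible). Genes known from non-classical monocytes did not move one way. Adgre4 and Eno3 were called lower (log2 -0.84 and -0.57, limma adjusted p = 0.0414 and 0.038), and Pou2f2 was lower in all DON libraries without passing (log2 -0.21, limma adjusted p = 0.105). Ace and Cd300e, chosen after their values were seen, were higher in all DON libraries without passing. Ace, angiotensin-converting enzyme, had 68.9, 37.5 and 77 normalized counts in DON and 31.3, 16.5 and 20.5 in Control (log2 1.37, limma adjusted p = 0.0867). Cd300e, an activating receptor, had 173, 210.5 and 166 in DON and 123, 103 and 143 in Control (log2 0.58, limma adjusted p = 0.114).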
